A study of Xenopus laevis with 24 samples.

Results

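Vehicle-treated gastrulae of 2 clutches of the frog *Xenopus laevis* were compared by RNA sequencing, clutch E against clutch D. The comparison used the vehicle libraries alone, 8 of the 24 libraries of the series, with 4 replicates of clutch E and 4 of clutch D, taken from the labels. The remaining 16 libraries came from embryos of the same clutches exposed to TTNPB, which activates retinoic acid receptors selectively, or to AGN193109, an inverse agonist of those receptors, both at 1 µM. They entered only where named. Vehicle embryos stood in 0.1% ethanol from stage 6 to 7 onwards, 25 to a dish, and were collected at gastrula stage 10.5, and each library was made from 5 whole embryos. A clutch is the egg batch of a female, fertilized in vitro, so each side of the comparison is 1 egg batch and its libraries are aliquots of it. P-values therefore measure the spread between aliquots, which may share a dish, and clutch and any difference in how the clutches were raised or processed cannot be told apart. The labels name neither strain nor genotype, and they speak of 5 replicates per clutch, of which 4 per exposure were analysed here.

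Stage 10.5 is the early gastrula, when the dorsal blastopore lip has formed and the germ layers are being laid down. The organizer, the dorsal mesoderm, secretes antagonists of BMP and WNT proteins, and ectoderm shielded from BMP takes a neural fate while ectoderm that receives BMP becomes epidermis. Transcription of the embryo's own genome begins at the midblastula transition, and before it the embryo runs on transcripts stored in the egg, many of which are still present in the gastrula.

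Each of the 31306 deposited values per library is an FPKM, a fragment number scaled by transcript length and by the size of the library, and belongs to a GenBank transcript sequence, here called a record. Genes of this allotetraploid frog, and their L and S copies, can each have several records between which reads may be divided. Sequencing depth is unknown, since FPKM without read counts does not give it. The 19437 records that averaged 1 FPKM or more across the vehicle libraries were tested. Of these, 412 reached that mean in clutch E alone and 1088 in clutch D alone, so those records passed only through the clutch where they were higher.

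The vehicle libraries of clutch D did not form 1 uniform group. Total FPKM was between 660432 and 701578 in clutch E. In clutch D it was 1011845, 1009603 and 995556 in replicates 1, 2 and 4 and 729879 in replicate 3. The 10 most abundant records took 49.1% to 51.3% of all FPKM in clutch E, 61.6% to 62.8% in those 3 clutch D libraries and 46.9% in clutch D replicate 3. Most of these 10 records are unnamed cDNA clones, and the one with the largest ratio between the clutches averaged 7105 ± 2732 FPKM in clutch E and 50236 ± 26243 FPKM in clutch D (SD, n = 4 each). On log2 values the clutch E libraries correlated with each other at 0.946 to 0.951 and the clutch D libraries at 0.918 to 0.924. Clutch D replicate 3 correlated with clutch E at 0.915 to 0.919, and the other clutch D libraries did so at 0.889 to 0.900. On 37 records that separated the clutches by at least 4-fold in the 16 exposed libraries, clutch D replicate 3 lay nearer clutch D in 37, so its clutch label held. The 4 libraries of clutch E lay nearer clutch E in 35 or 36 of the 37. Replicate 3 was not alone in its clutch, since 1 TTNPB and 2 AGN193109 libraries of clutch D also totalled under 750000 FPKM, with 44.1% to 47.9% in the 10 leading records, and AGN193109 clutch E replicates 2 and 4 lay above that total at 801545 and 988136 FPKM. Total FPKM did not overlap between the clutches even with clutch D replicate 3 counted (two-sided exact permutation test, p = 0.0286). The share separated the clutches only without that replicate. Over all 8 vehicle libraries the share was 50.4% ± 0.956 in clutch E and 58.4% ± 7.71 in clutch D (SD, n = 4 each). Those ranges overlapped (two-sided exact permutation test, p = 0.1429). Runs scaled without the 10 most abundant records, and exposed libraries restricted to totals under 750000 FPKM, are given below. What part total or share had in any single difference was not tested.

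**Figure D1:**
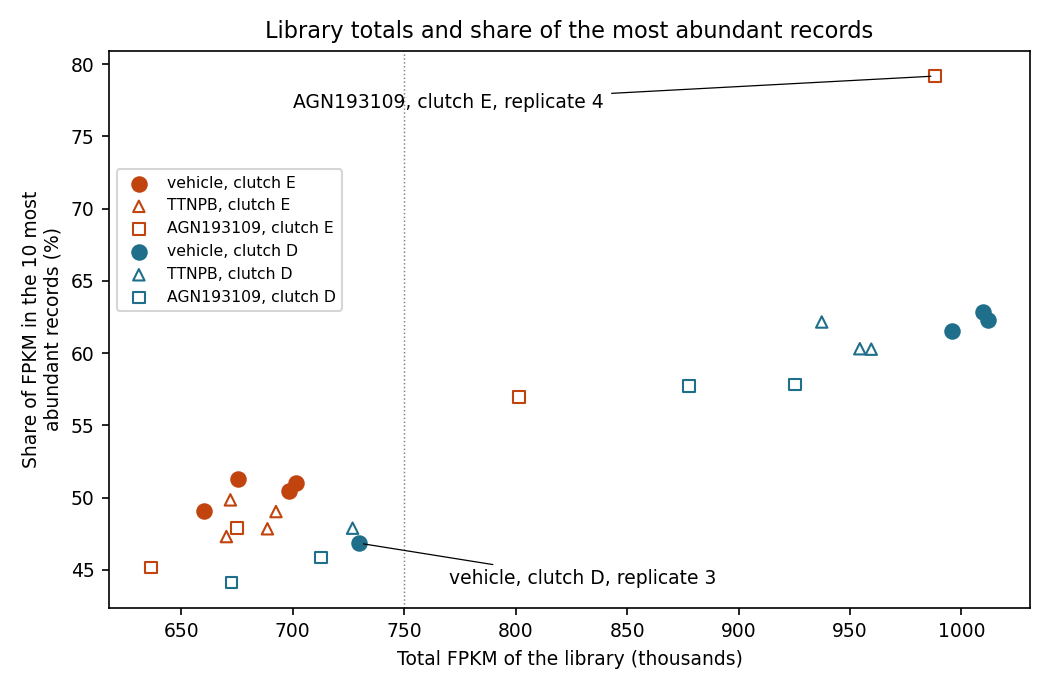
Total FPKM (x axis) against the share of FPKM in the 10 most abundant records (y axis, percent) for each of the 24 libraries, with filled circles for vehicle and open symbols for TTNPB and AGN193109, orange for clutch E and blue for clutch D. The 4 vehicle libraries of clutch E sit together at the lower left, 3 of clutch D sit at the right near 62%, and clutch D replicate 3 lies at 46.9%; the dotted line marks 750000 FPKM.

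The scale of the values shifted with clutch, so records were fitted on both scales: with FPKM as deposited, and after quantile normalization, which gives all 8 libraries the same distribution. A log2 difference is of FPKM as deposited unless quantile normalization is named with it. All differences are clutch E minus clutch D in log2(FPKM + 1), a scale on which differences of records near 0 come out too small. With FPKM as deposited the median difference of all tested records was -0.18, and after quantile normalization it was 0.01. The median FPKM of the tested records was 4.72 ± 0.30 in clutch E and 5.62 ± 0.21 in clutch D (SD, n = 4 each; two-sided exact permutation test, p = 0.0286, the smallest that 4 against 4 allows, 0.0334 after adjustment over 7 library measures). More records were above 0 in clutch E, 28625 ± 123, against 27768 ± 192 in clutch D (exact permutation p = 0.0286). Fewer reached 1 FPKM in clutch E, 18358 ± 359, against 19270 ± 187 in clutch D (exact permutation p = 0.0286). For both counts too the ranges of the clutches did not overlap.

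With FPKM as deposited 3348 records differed between the clutches (limma, Benjamini-Hochberg adjusted p under 0.05), 17.2% of those tested, of which 576 (2.96%) were higher in clutch E and 2772 (14.3%) were lower. After quantile normalization 2473 (12.7%) differed, 1213 (6.24%) higher and 1260 (6.48%) lower. Because that normalization makes the distributions equal, its even split cannot show whether the lopsided split of the deposited values is real. Under upper-quartile scaling 62.63% of calls were higher in clutch E, and under scaling without the 10 most abundant records 39.2% were. With FPKM as deposited alone 1513 records were lower, and after quantile normalization alone 639 were higher. Both fits called 1833 records (9.43%), 574 higher (2.95%) and 1259 lower (6.48%), and none in opposite directions. The 4 values of clutch E lay wholly above or below those of clutch D in 4497 records (23.1%), and after quantile normalization in 3984 (20.5%). Of the 1833, 504 differed at least 2-fold on both scales, 180 higher and 324 lower. Without clutch D replicate 3 the counts were 726 higher and 2870 lower as deposited, and 1408 higher and 1526 lower after quantile normalization. In what follows, rose and fell refer to clutch E relative to clutch D, and a record called on 1 scale only is named as such.

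**Figure D2:**
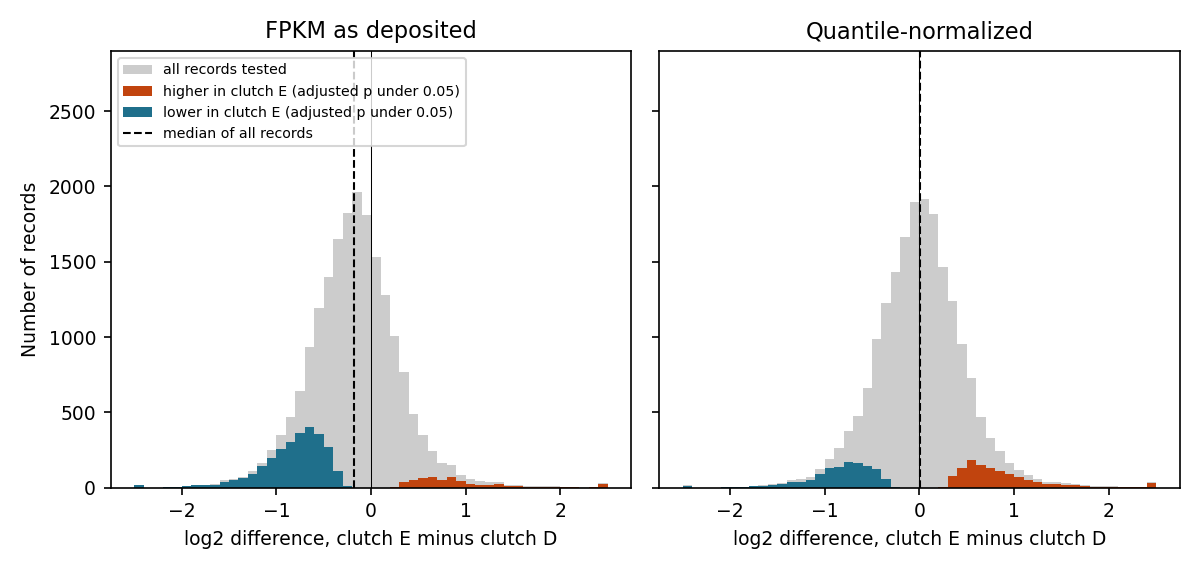
Histograms of the log2 difference, clutch E minus clutch D, over the 19437 tested records (x axis, log2; y axis, number of records), with FPKM as deposited on the left and quantile-normalized on the right. Orange marks records called higher in clutch E and blue those called lower; the dashed median lies at -0.18 on the left and at 0.01 on the right, and values beyond the axis are stacked in the outermost bins.

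Genes of the neural plate stood higher in clutch E. The list of neural plate genes had 25 tested records, of which 9 rose on both scales and none fell on either, beside 2.95% of all records that rose on both. The median difference of the list was 0.23 with FPKM as deposited and 0.42 after quantile normalization, where all records had -0.18 and 0.01. Its summed level was 1207 ± 25.0 FPKM in clutch E and 939 ± 40.4 FPKM in clutch D (SD, n = 4 each). Under upper-quartile scaling 12 of the 25 rose, under scaling without the 10 most abundant records 11 did, and none fell under either. Of all 19437 records 1636 and 976 rose under these scalings, in that order, against 576 as deposited. Taken singly, the scales gave 9 rises as deposited and 11 after quantile normalization. Without clutch D replicate 3 the count was 9 rises and no fall, on each scale. With all 24 libraries in 1 fit 2 records rose as deposited and 9 after quantile normalization. In that fit 265 and 909 of all 19437 records rose, in that order.

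*sox3*, a SoxB1 factor of the early neural ectoderm and the most abundant record of the list, had 221, 205, 218 and 198 FPKM in clutch E, against 154, 137, 184 and 134 FPKM in clutch D. Every clutch E library lay above every clutch D library, and clutch D replicate 3 came nearest. The log2 difference was 0.48 ± 0.11 (SE; limma adjusted p = 0.0176) as deposited and 0.63 (adjusted p = 0.00529) after quantile normalization. *irx1*, an Iroquois homeobox gene, had 37.0, 42.3, 41.8 and 49.7 FPKM in clutch E, against 22.2, 16.9, 27.3 and 24.3 FPKM in clutch D. That is a log2 difference of 0.90 ± 0.15 (SE; limma adjusted p = 0.00559) without overlap of the clutches.

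*sox11*, a SoxC factor of neural progenitors, had a record described as XLS13A with 94.2, 85.0, 94.2 and 89.4 FPKM in clutch E, against 38.9, 44.3, 69.4 and 46.3 FPKM in clutch D. Its second record, XLS13B, rose by 0.49, against 0.89 for XLS13A, so both records moved the same way. Both records of *sall4*, a zinc finger factor of pluripotent and neural cells, rose too. They averaged 146 ± 4.41 and 118 ± 5.4 FPKM in clutch E, against 95.5 ± 7.25 and 93.7 ± 4.18 FPKM in clutch D (SD, n = 4 each), without overlap. The remaining rises were *sall1* (0.46) and records of *foxd4l1*, a forkhead factor that acts at the onset of neural fate, described as XFD-12'' (0.90) and FoxD5a (0.44).

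Other members of the list were not called on both scales. *sox15* stood at 142 ± 12.4 FPKM in clutch E and 139 ± 10.1 FPKM in clutch D, a difference within the spread of the replicates. *zic1* averaged 59.0 ± 3.61 and 52.4 ± 3.62 FPKM, in that order of clutches, with an adjusted p of 0.225. *gmnn*, the replication licensing inhibitor geminin that promotes neural fate in frog ectoderm, passed after quantile normalization alone (log2 0.39). The eye field genes *rax* and *pax6*, records of *six3* and *neurog2*, and *ncam1* lay below 1 FPKM on average and were not tested. No record was matched by name to *sox2* or *otx2*.

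**Figure D3:**
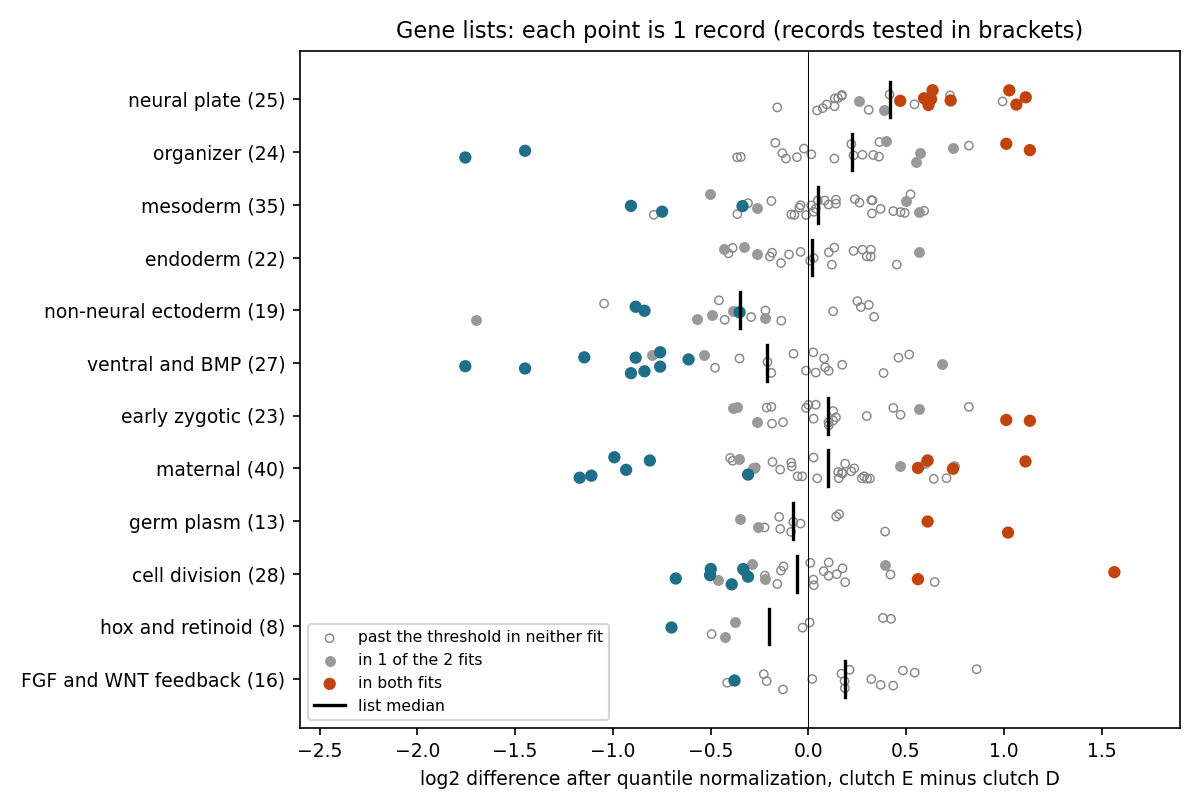
Log2 difference after quantile normalization (x axis, clutch E minus clutch D) for each tested record of 12 gene lists (rows, number of records in brackets). Open grey circles passed the threshold in neither fit and filled grey in 1 of the 2; orange rose and blue fell in both, and the bar is the list median. The neural plate row lies mostly to the right with 9 orange points, and the ventral and BMP row holds 9 blue points and none in orange.

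Genes of the ventral side, which transduce or answer BMP signals, stood lower in clutch E. Of 27 tested records 9 fell on both scales, and 2 more fell as deposited, while 1 rose after quantile normalization alone (*smad6*, an inhibitory Smad, 0.69). The list median was -0.35 as deposited and -0.21 after quantile normalization. Its summed level was 572 ± 33.2 FPKM in clutch E and 801 ± 64.9 FPKM in clutch D (SD, n = 4 each). Of all records 6.48% fell on both scales. Under upper-quartile scaling 8 fell and 1 rose, with a median of -0.06, and under scaling without the 10 most abundant records 10 fell and 1 rose. Of all 19437 records 976 and 1514 fell under these scalings, in that order, and 1636 and 976 rose. Without clutch D replicate 3, 11 fell as deposited and 8 after quantile normalization. In these whole-embryo pools fewer cells of a kind and less RNA per cell cannot be told apart.

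*bambi*, a pseudoreceptor that dampens BMP signalling and is itself switched on by it, had 19.5, 23.2, 23.1 and 21.8 FPKM in clutch E, against 50.8, 62.1, 57.2 and 53.5 FPKM in clutch D. Both clutches were tight and far apart, with a log2 difference of -1.31 ± 0.10 (SE; limma adjusted p = 0.000169), and -1.15 after quantile normalization (adjusted p = 0.000427). *szl*, which encodes sizzled, a secreted inhibitor of the proteases that degrade chordin, had 4.42, 2.10, 4.64 and 2.23 FPKM in clutch E. In clutch D it had 14.1, 7.08, 14.4 and 14.9 FPKM, so replicate 2 of clutch D was the lowest there and still above clutch E. A second *szl* record, described as frzb3, had 0.755, 2.96, 1.30 and 1.92 FPKM in clutch E, against 5.16, 10.8, 10.5 and 11.4 FPKM in clutch D. These fell by 1.65 ± 0.28 and 1.95 ± 0.30 on the log2 scale (SE), the largest falls of the list.

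The transcription factors of the ventral program followed with smaller values. *gata2*, a GATA factor of ventral mesoderm and non-neural ectoderm, had 13.4, 13.4, 14.0 and 14.5 FPKM in clutch E, against 24.4, 27.5, 34.2 and 30.9 FPKM in clutch D (log2 -1.02 ± 0.12, SE; limma adjusted p = 0.00117). All 3 records of *ventx1*, a homeobox gene induced directly by BMP, lay lower in clutch E without overlap. Described as Xvent-1, it averaged 48.7 ± 6.94 FPKM in clutch E and 82.3 ± 7.66 FPKM in clutch D, and the PV.1 record averaged 24.9 ± 5.22 and 48.2 ± 10.7 FPKM (SD, n = 4 each). The third, at -0.98, passed as deposited but not after quantile normalization (adjusted p = 0.0558). *id2*, an inhibitor of helix-loop-helix factors, fell by 0.94, *msx1*, a BMP-induced homeobox gene, by 1.09 and *evx1*, a posterior and ventral homeobox gene, by 1.11.

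The ligands and the paralogous *ventx2* gene were not called with the same regularity. Of 2 *bmp4* records the one called as deposited averaged 6.04 ± 1.59 FPKM in clutch E and 10.8 ± 2.85 FPKM in clutch D (SD, n = 4 each; limma adjusted p = 0.0450), with overlapping values and no call after quantile normalization. The other averaged 19.8 ± 8.41 and 20.7 ± 5.95 FPKM, in that order of clutches, with an adjusted p of 0.818. The most abundant *ventx2* record averaged 96.8 ± 10.3 FPKM in clutch E and 105 ± 25.1 FPKM in clutch D, and none of the 3 *ventx2* records was called.

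**Figure D4:**
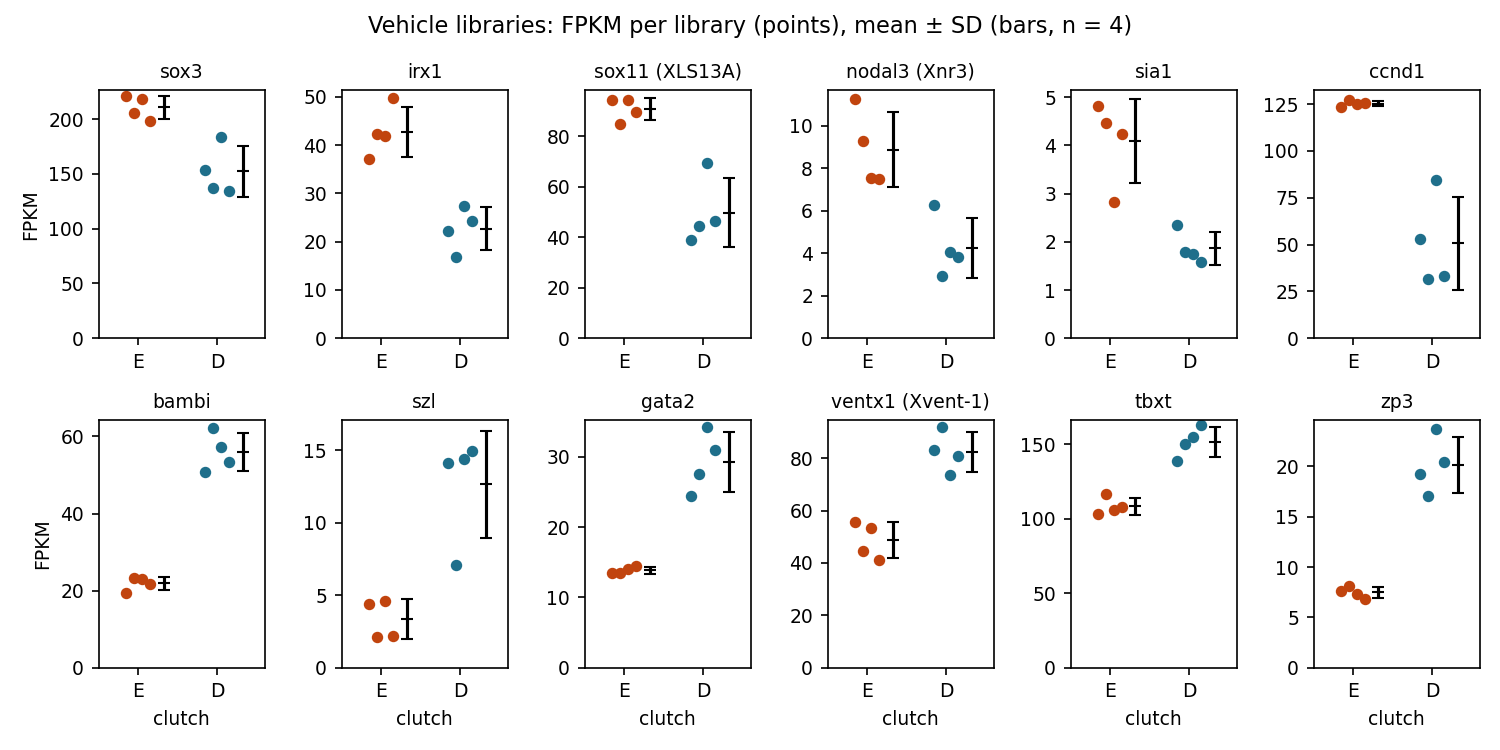
FPKM of 12 records in the 4 vehicle libraries of clutch E (orange) and of clutch D (blue), 1 point a library, with the mean and SD beside them (n = 4 each; every y axis starts at 0). In the upper row every clutch E value lies above every clutch D value, and in the lower row every one lies below; *ccnd1* has near-equal values in clutch E and widely spread ones in clutch D.

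Of the non-neural ectoderm list 8 of 19 tested records were lower in clutch E as deposited and 3 on both scales, and none was higher on either, where 14.3% of all records fell as deposited and 6.48% on both. The 3 were *gata2*, *msx1* and *grhl3*, a Grainyhead factor of epidermal barrier formation, and *gata2* and *msx1* belong to the ventral list as well. The *grhl3* record had 21.9, 24.2, 23.1 and 18.9 FPKM in clutch E, against 29.0, 32.4, 32.9 and 33.8 FPKM in clutch D (log2 -0.52). The clutches did not overlap. A second *grhl3* record averaged 25.3 ± 6.81 FPKM in clutch E and 34.3 ± 2.11 FPKM in clutch D (SD, n = 4 each) and was not called. The list's count depended on scaling, with 1 fall under upper-quartile scaling and 3 under scaling without the 10 most abundant records. Of all 19437 records 976 and 1514 fell under these scalings, in that order. Without clutch D replicate 3, 6 fell as deposited and 2 after quantile normalization, and with all 24 libraries in 1 fit 3 and 2 did. Among all 19437 records 2870 and 1526 fell without that replicate, and 1722 and 1011 fell in the fit of 24. Leaving out clutch E replicate 4 or clutch D replicate 4 gave 2 falls as deposited, leaving out clutch E replicate 1 gave 3, and leaving out clutch E replicate 2 or 3 or clutch D replicate 2 gave 5. In these runs 1586 to 2171 of all records fell as deposited, against 2772 with no library left out.

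*krt18*, a simple-epithelial keratin and by far the most abundant record of the list, averaged 395 ± 40.4 FPKM in clutch E and 499 ± 23.3 FPKM in clutch D (SD, n = 4 each), lower as deposited alone. The same held for *krt70* (log2 -0.55), *foxi4* (-0.76), a forkhead factor of the epidermis, *gata3* (-0.69) and a *tp63* record (-1.79). That *tp63* record, of the p63 factor of epidermal stem cells, had 0.307, 0.523, 0.314 and 0 FPKM in clutch E, against 1.61, 10.4, 0.771 and 6.14 FPKM in clutch D. Its clutch D values were scattered, and it passed the filter on low values only through clutch D. *tfap2a*, *dlx3* and *foxi1*, further epidermal and border factors, were called on neither scale, and *krt8* averaged 61.4 ± 6.54 FPKM in clutch E and 54.2 ± 12.4 FPKM in clutch D. A keratin record outside the list, described as gastrula stage epidermal type I cytokeratin, went the other way and was among the 10 largest named rises. It had 6.59, 9.49, 10.3 and 4.14 FPKM in clutch E, against 0.939, 2.10, 2.76 and 0.893 FPKM in clutch D, without overlap (log2 1.69 ± 0.31, SE; limma adjusted p = 0.00789).

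The organizer list held calls in both directions. Of 24 tested records 2 rose and 2 fell on both scales, where 2.95% of all records rose and 6.48% fell, and the 2 falls were the *szl* records, whose gene is expressed ventrally and answers BMP although its product acts on the organizer's chordin. Without *szl* the list had 2 rises and no fall among 22 records, with a median of 0.05 as deposited and 0.25 after quantile normalization. After quantile normalization 6 of the 24 rose and 2 fell, again the *szl* records, where 6.24% of all records rose and 6.48% fell. The rises on both scales were genes switched on early by maternal WNT signalling on the dorsal side. *nodal3*, described as an organizer-specific TGF-beta relative, had 11.2, 9.28, 7.52 and 7.48 FPKM in clutch E, against 6.25, 2.93, 4.05 and 3.84 FPKM in clutch D (log2 0.93 ± 0.21, SE; limma adjusted p = 0.0177). *sia1*, which encodes the homeobox protein siamois, had 4.82, 4.47, 2.82 and 4.24 FPKM in clutch E, against 2.35, 1.79, 1.74 and 1.58 FPKM in clutch D (log2 0.82 ± 0.19; adjusted p = 0.0190). Neither overlapped, though clutch D replicate 1 was the highest of its clutch for both.

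The organizer's later products did not follow as a block. *gsc*, the homeobox gene goosecoid, had 12.2, 10.4, 11.9 and 9.26 FPKM in clutch E, against 10.2, 6.73, 6.18 and 6.20 FPKM in clutch D, with an overlap through clutch D replicate 1. Its adjusted p was 0.0590 as deposited (log2 0.54) and 0.0195 after quantile normalization (log2 0.74). *dkk1*, a secreted WNT antagonist (log2 0.55), *pnhd* (0.40) and an *otx5* record (0.57) were higher after quantile normalization alone. *chrd*, which encodes the BMP antagonist chordin, averaged 60.0 ± 6.10 FPKM in clutch E and 70.9 ± 4.0 FPKM in clutch D (SD, n = 4 each; limma adjusted p = 0.114). *cer1*, which encodes the secreted antagonist cerberus, averaged 63.7 ± 11.0 and 62.9 ± 5.15 FPKM, and *nog*, which encodes noggin, averaged 2.17 ± 0.471 and 3.08 ± 0.262 FPKM, in the same order of clutches. Neither was called. *lhx1*, *hhex*, *foxa2*, *admp*, *frzb* and *shh* were not called on either scale, and *noto* and *foxa4* were not matched to a record by name.

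In the mesoderm list, 35 tested records, none rose as deposited and 5 fell, near the 14.3% of all records that fell. After quantile normalization 2 rose, both of *meis3*, a homeobox cofactor of posterior neural fate, and 3 fell, where 6.24% of all records rose and 6.48% fell. The list median was -0.10 as deposited and 0.05 after quantile normalization. *tbxt*, the T-box gene brachyury expressed throughout the early mesoderm ring, had 103, 117, 106 and 108 FPKM in clutch E, against 139, 150, 155 and 163 FPKM in clutch D. No values overlapped, and the log2 difference was -0.48 ± 0.08 (SE; limma adjusted p = 0.00592), and -0.34 (adjusted p = 0.0219) after quantile normalization. A second brachyury gene, *tbxt.2*, averaged 13.7 ± 0.887 FPKM in clutch E and 12.5 ± 1.83 FPKM in clutch D and was not called.

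The other falls on both scales were *evx1*, given above, and *cdx1*, a posterior homeobox gene, which had 7.23, 7.39, 7.96 and 5.69 FPKM in clutch E, against 15.1, 14.3, 12.3 and 16.5 FPKM in clutch D. *foxf1*, a forkhead gene of ventral mesoderm, was lower as deposited alone (-0.69). In each of the 5 records that fell as deposited, the mesendodermal *mixer* among them, every clutch E library lay below every clutch D library. Such separation goes with being called: of 476 named records called on both scales, 470 had no overlap. Among all tested records 23.1% had none. *vegt*, *eomes* and *tbx6*, T-box genes of mesoderm and endoderm, the somitic regulators *msgn1* and *myod1*, and the growth factor *fgf8* were not called on either scale. *vegt* averaged 96.7 ± 13.3 FPKM in clutch E and 112 ± 7.65 FPKM in clutch D, *tbx6* averaged 20.1 ± 1.76 and 18.4 ± 3.96 FPKM, and *fgf8* averaged 13.8 ± 0.996 and 13.3 ± 1.5 FPKM (SD, n = 4 each; clutch E before clutch D throughout).

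Endoderm genes differed least among the germ-layer lists in number of calls shared by both scales, with 0 of 22 tested records. As deposited 3 fell and after quantile normalization 1 rose (*bix1*, a homeobox gene induced by VegT, log2 0.56), counts near the 14.3% and 6.24% of all records. The list median was -0.13 as deposited and 0.02 after quantile normalization. The *mixer* record described as Mix.3, the most abundant, had 102, 109, 111 and 94.1 FPKM in clutch E, against 128, 139, 141 and 148 FPKM in clutch D, lower as deposited alone (-0.42; adjusted p = 0.0118). Both records of *gata6*, a GATA factor of endoderm, were likewise lower as deposited alone (-0.61 and -0.51). *gata4* averaged 88.4 ± 8.35 FPKM in clutch E and 78.8 ± 20.2 FPKM in clutch D, and 2 records of *sox17b*, an HMG-box factor that fixes endoderm fate, averaged 54.6 ± 4.06 and 58.0 ± 3.94 FPKM in clutch E, against 66.6 ± 7.08 and 64.3 ± 11.9 FPKM in clutch D (SD, n = 4 each). Neither gene was called, nor were *sox17a* and *mix1*.

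Genes first transcribed around the midblastula transition, 23 tested records, held 2 rises on both scales, the *nodal3* and *sia1* records above, and no fall on both, where 2.95% of all records rose and 6.48% fell. As deposited 3 fell, near the 14.3% of all records, namely *pou5f3.2*, *mixer* and *krt70*. The list median was -0.10 as deposited and 0.10 after quantile normalization, so its sign changed with the scale. *pou5f3.2*, a POU factor of the pluripotency network and the most abundant record, had 278, 329, 295 and 264 FPKM in clutch E, against 442, 459, 337 and 437 FPKM in clutch D. Clutch D replicate 3 stood nearest to clutch E, and the fall of 0.52 as deposited (limma adjusted p = 0.0167) was not called after quantile normalization (adjusted p = 0.0760). *pou5f3.1* was not called, with its xoct-91 record at 108 ± 9.31 FPKM in clutch E and 110 ± 15.7 FPKM in clutch D (adjusted p = 0.926). A second *nodal3* record, described as fugacin, averaged 2.97 ± 2.09 FPKM in clutch E and 1.18 ± 0.412 FPKM in clutch D and was not called. The ligand genes *nodal1*, *nodal2* and, of the mesoderm list, *nodal* lay between 1.67 and 2.72 FPKM on average in either clutch and were not called. All records of *nodal5* and *nodal6*, expressed earlier in the vegetal cells, lay below 1 FPKM and were not tested.

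Transcripts stored in the egg split in both directions. Of 40 tested records 4 rose and 6 fell on both scales, where 2.95% of all records rose and 6.48% fell, and 9 fell as deposited, where 14.3% of all did, with a list median of -0.09 as deposited and 0.10 after quantile normalization. All 4 records of egg coat proteins, a group taken from this list and not planned as one, fell as deposited, and 3 of them did on both scales. *zp3*, a glycoprotein of the vitelline envelope, had 7.65, 8.14, 7.34 and 6.85 FPKM in clutch E, against 19.2, 17.1, 23.8 and 20.4 FPKM in clutch D (log2 -1.31 ± 0.13, SE; limma adjusted p = 0.000506). The 2 *zp4* records fell by 1.36 and 1.00. *h1-8*, the linker histone of the egg, had 30.03, 35.2, 25.2 and 28.3 FPKM in clutch E, against 82.7, 78.7, 54.7 and 54.5 FPKM in clutch D, a fall of 1.14. None of these values overlapped between the clutches.

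The maternal rises were *ccnb1*, the mitotic cyclin B1, *grip2*, a germ plasm scaffold protein, *foxh1*, a Smad partner in nodal signalling, and 1 of 2 records of *ccna1*, the embryonic cyclin A1. *ccnb1*, the most abundant of the list, had 205, 254, 194 and 221 FPKM in clutch E, against 152, 155, 173 and 164 FPKM in clutch D (log2 0.43 ± 0.10, SE; limma adjusted p = 0.0177). The *foxh1* record rose by 0.58 although clutch E replicate 1 at 38.0 FPKM lay below clutch D replicate 2 at 38.5 FPKM. The 2 *ccna1* records moved in opposite directions. The more abundant had 24.8, 33.4, 25.1 and 23.0 FPKM in clutch E, against 65.7, 44.5, 60.6 and 58.7 FPKM in clutch D, and the other averaged 6.25 ± 0.536 FPKM in clutch E and 2.89 ± 0.515 FPKM in clutch D (SD, n = 4 each). Of the 156 genes with 2 or more tested records, 8 had at least 2 called on both scales, and *ccna1* was the only one of the 8 whose called records went opposite ways. *gdf1*, the maternal TGF-beta factor Vg1, averaged 12.1 ± 2.13 FPKM in clutch E and 8.07 ± 2.07 FPKM in clutch D and was higher after quantile normalization alone (log2 0.74). *zar1*, *ctnnb1* and *vegt* were not called.

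Germ plasm transcripts, 13 tested records, counted 2 rises on both scales, *grip2* (log2 0.41) and *germes* (0.87), where 2.95% of all records rose. *germes*, a germ plasm transcript of the frog, averaged 2.18 ± 0.629 FPKM in clutch E and 0.736 ± 0.312 FPKM in clutch D (SD, n = 4 each), and so passed the filter only through clutch E. The falls of a *plin2* record (-0.48) and *tdrd6* (-0.46) were called as deposited alone. *dazl*, *ddx25*, *nanos1* and *velo1*, transcripts of the germ plasm and the vegetal cortex, were not called. As a check of the stage, 20 records were matched to a list of differentiation genes of muscle, neurons, blood and cartilage. Of them 16 averaged below 1 FPKM over the 8 libraries, as did 11869 of all 31306 records. One of the 16, *neurod1*, a neuronal differentiation factor named here after its values were seen, was listed at 0.223, 0.324, 1.28e-27 and 0 FPKM in clutch E, against 1.31, 2.27, 1.88 and 1.6 FPKM in clutch D, and was not tested. The 4 that were tested held *elavl3*, a neuronal RNA-binding protein, higher after quantile normalization alone, and *tnnt3*, a muscle troponin, lower as deposited alone. The *tnnt3* record averaged 0.714 FPKM in clutch E and 1.87 FPKM in clutch D, and so passed the filter only through clutch D. Together the 4 summed to 15.2 ± 3.21 FPKM in clutch E and 12.6 ± 1.61 FPKM in clutch D. MRF4a, a myogenic regulatory factor, is not on this list and is set beside it after its values were seen. It averaged 14.9 ± 3.82 FPKM in clutch E and 50.3 ± 2.76 FPKM in clutch D, so not every muscle gene was low. *gsc*, *chrd*, *tbxt* and *sox17b*, which mark the gastrula's dorsal lip, mesoderm and endoderm, were above 0 in all 8 libraries. In each of these libraries 27595 to 28762 of the 31306 records were above 0, so this does not test the stage.

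Cell division genes, 28 tested records, had 2 rises and 6 falls on both scales, where 2.95% of all records rose and 6.48% fell. *ccnd1*, the G1 cyclin D1, gave the largest rise of any list. It had 124, 127, 125 and 126 FPKM in clutch E, against 53.0, 31.5, 84.7 and 33.4 FPKM in clutch D (log2 1.41 ± 0.26, SE; limma adjusted p = 0.00845). Its clutch E values were nearly equal while those of clutch D spread from 31.5 to 84.7, with replicate 3 highest. As deposited 10 of the 28 records fell, where 14.3% of all records did. A group not planned as a list was taken from these, the replication helicase (*mcm2*, *mcm3*, *mcm4*, *mcm5* and *mcm7*), its loader *cdc6* and the clamp *pcna*. Of its 11 records 7 fell as deposited, 3 fell on both scales and none rose. The 3 were an *mcm7* record (-0.49), *pcna* (-0.51) and an *mcm4* record (-0.70). A record described as Wee1A kinase, which holds back mitotic entry, was counted here as *wee1*. It had 8.41, 7.06, 6.18 and 6.61 FPKM in clutch E, against 13.5, 11.3, 14.5 and 16.1 FPKM in clutch D, a fall of 0.88. *cdc20*, an activator of the anaphase-promoting complex, fell by 0.68 and *ccne1*, the maternal cyclin E1, by 0.43.

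The retinoid and anterior hox list had 8 tested records, of which 3 fell as deposited and 1 on both scales, where 14.3% and 6.48% of all records did. *rara*, the retinoic acid receptor alpha, averaged 2.42 ± 0.292 FPKM in clutch E and 5.44 ± 0.770 FPKM in clutch D (SD, n = 4 each; log2 -0.91; limma adjusted p = 0.00659). *hoxd1*, a retinoid-responsive hox gene, averaged 7.60 ± 1.32 and 12.2 ± 1.29 FPKM, and the more abundant record of *cyp26a1*, the enzyme that degrades retinoic acid, averaged 20.9 ± 2.04 and 31.1 ± 3.32 FPKM, in that order of clutches. Both were lower as deposited alone, with adjusted p of 0.0703 and 0.0540 after quantile normalization. Feedback targets of FGF and WNT signalling, 16 tested records, had 1 fall on both scales, an *etv4* record (-0.51). Of 9 stress records, 1 fell on both scales, *gadd45g* (-1.16), and *cdknx* was lower as deposited alone. None of 5 ribosomal protein records was called on either scale.

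The largest differences lay outside these lists. Among named records called on both scales without overlap, the largest rise was Tiarin, a secreted protein first known for patterning the dorsal neural tube, with 99.0, 53.1, 88.8 and 70.7 FPKM in clutch E, against 2.96, 3.47, 4.69 and 2.80 FPKM in clutch D. The log2 difference was 4.12 ± 0.21 (SE; limma adjusted p = 1.86e-05), and the clutch means differed 22.4-fold. A record of *Gabrr1*, a subunit of the ionotropic GABA receptor, had 10.5, 2.86, 10.3 and 3.81 FPKM in clutch E and was listed at 0 in all 4 clutch D libraries. Records of the UDP-glycosyltransferases *ugt3a2* and *ugt1a6* averaged 4.28 ± 0.455 and 2.30 ± 0.0731 FPKM in clutch E. In clutch D they averaged 0.0197 ± 0.0394 and 0.0124 ± 0.0247 FPKM, where 3 of 4 libraries were listed at 0 for each. These 3 records, and lamin A below, averaged under 1 FPKM in clutch D and passed the filter on low values only through clutch E. *adal*, an adenosine deaminase-like enzyme, averaged 23.4 ± 4.04 FPKM in clutch E and 3.82 ± 1.21 FPKM in clutch D. *srd5a1*, a steroid 5-alpha reductase, averaged 11.9 ± 0.821 and 3.48 ± 1.27 FPKM, and lamin A, of the nuclear lamina, 3.51 ± 0.972 and 0.537 ± 0.206 FPKM, in that order of clutches. *gigyf1* was uneven in clutch D, where replicate 1 had 5.57 FPKM and the others at most 0.140, against 6.79 to 14.2 FPKM in clutch E.

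The largest named fall was secretagogin, an EF-hand calcium-binding protein, with 0.0966, 0.105, 0.275 and 0.108 FPKM in clutch E, against 12.02, 8.73, 9.59 and 6.55 FPKM in clutch D (log2 -3.13). It passed the filter only through clutch D. A record described as Riddle 1 had 8.06, 4.35, 5.65 and 6.24 FPKM in clutch E, against 80.2, 38.6, 40.3 and 73.5 FPKM in clutch D (log2 -3.01). In both, the lowest clutch D library lay several times above the highest of clutch E. *pmel*, a structural protein of pigment granules, averaged 1.33 ± 0.518 FPKM in clutch E and 7.66 ± 1.57 FPKM in clutch D. Annexin A1, a phospholipid-binding protein, averaged 4.71 ± 1.75 and 19.4 ± 6.05 FPKM, MRF4a, a myogenic regulatory factor, 14.9 ± 3.82 and 50.3 ± 2.76 FPKM, and RGS4, a regulator of G-protein signalling, 4.01 ± 0.562 and 15.5 ± 3.3 FPKM, in that order of clutches (SD, n = 4 each). The *szl* record described as frzb3 was among the 10 largest named falls as well. Of the 59 records that differed at least 4-fold on both scales, 37 were higher and 22 lower, and 52 carried no gene name, while 14938 of all 19437 tested records carried none.

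Of the leading records of the germ layers, *krt18* was the highest in both clutches, followed by *pou5f3.2*. The values of *krt18* did not overlap those of *pou5f3.2* within a clutch. *krt18* stood at 395 and 499 FPKM, *pou5f3.2* at 291 and 419 FPKM, *sox3* at 211 and 152 FPKM, *tbxt* at 108 and 152 FPKM, and *mixer* (Mix.3) at 104 and 139 FPKM, clutch E before clutch D. In clutch E *sox3* thus stood above *tbxt*, with no overlap of their 4 values, and in clutch D their means differed by less than the spread between replicates. *gata4*, *chrd*, *cer1* and the *sox17b* records lay between 54.6 and 88.4 FPKM in either clutch. *gsc*, *lhx1* and *fgf8* lay between 7.32 and 13.8 FPKM.

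The 16 exposed libraries share no library with the vehicle comparison, though they come from the same 2 clutches, and the clutch difference was fitted there with exposure as a term. AGN193109 clutch E replicate 4 stood apart, with 79.2% of FPKM in its 10 most abundant records. With it 3112 records (16%) were called, 331 higher (1.7%) and 2781 lower (14.3%), and without it 4952 (25.5%), 1113 higher (5.73%) and 3839 lower (19.8%). Of the 574 vehicle rises shared by both scales, 547 (95.3%) pointed the same way in the 15 remaining exposed libraries and 357 (62.2%) were called there, none in the opposite direction. Of all records, 34.9% pointed up. Of the 1259 vehicle falls, 1251 (99.4%) pointed the same way and 1070 (85.0%) were called, where 65.1% of all records pointed down. Recurrence was lower with AGN193109 clutch E replicate 4 kept in. In all 16 libraries 503 (87.6%) of the rises pointed the same way and 150 (26.1%) were called. For the falls these were 1252 (99.4%) and 915 (72.7%), where 24.9% of all records pointed up and 75.1% down. These counts are of FPKM as deposited. After quantile normalization of the 15 libraries, a setting chosen after seeing the data, 428 (74.6%) of the rises and 911 (72.4%) of the falls were called. There 1 fall was called in the opposite direction, and of all records 11.2% were called higher and 11.5% lower. Restricted to exposed libraries with a total under 750000 FPKM, 6 of clutch E and 3 of clutch D, 2083 records (10.7%) were called, 472 higher (2.43%) and 1611 lower (8.29%). Among those libraries 521 (90.8%) of the rises and 1225 (97.3%) of the falls kept their direction, and 206 and 667 were called. That restriction was chosen after the library totals had been seen.

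Of the 43 list members called on both scales, 43 pointed the same way in the 15 exposed libraries and 35 were called there, against 23 called in those under 750000 FPKM. In those 15 libraries 5.73% of all records were called higher and 19.8% lower, with a median of -0.13. The whole neural plate list had 9 higher and 2 lower there (median 0.09), and the ventral list 2 higher and 10 lower (-0.30). The non-neural ectoderm list had 1 higher and 5 lower (-0.16), and the organizer list 1 higher and 6 lower (-0.15). *bambi* fell by 0.78 in the exposed libraries (limma adjusted p = 5.23e-05), the *szl* records by 1.36 and 1.81, and *gata2* by 0.58. *tbxt* fell by 0.45 and *ccnd1* rose by 0.85. *sox3* rose by 0.35 (limma adjusted p = 0.00285), but with AGN193109 clutch E replicate 4 kept in its difference was 0.07 (adjusted p = 0.888), and in the libraries under 750000 FPKM it was 0.22 (adjusted p = 0.0762). The members that were not called there included *sia1* (log2 0.24, adjusted p = 0.416), *nodal3* (0.70, adjusted p = 0.123), *msx1* (-0.30), *rara* (-0.37) and *gadd45g* (-0.28). *gsc* had a difference of -0.44 in the exposed libraries (adjusted p = 0.189), against 0.54 in the vehicle ones. Of the 20 largest named differences, 20 pointed the same way and 19 were called, against 17 in the libraries under 750000 FPKM. The exception of the 15 libraries was *gigyf1* (0.63, adjusted p = 0.507).

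**Figure D5:**
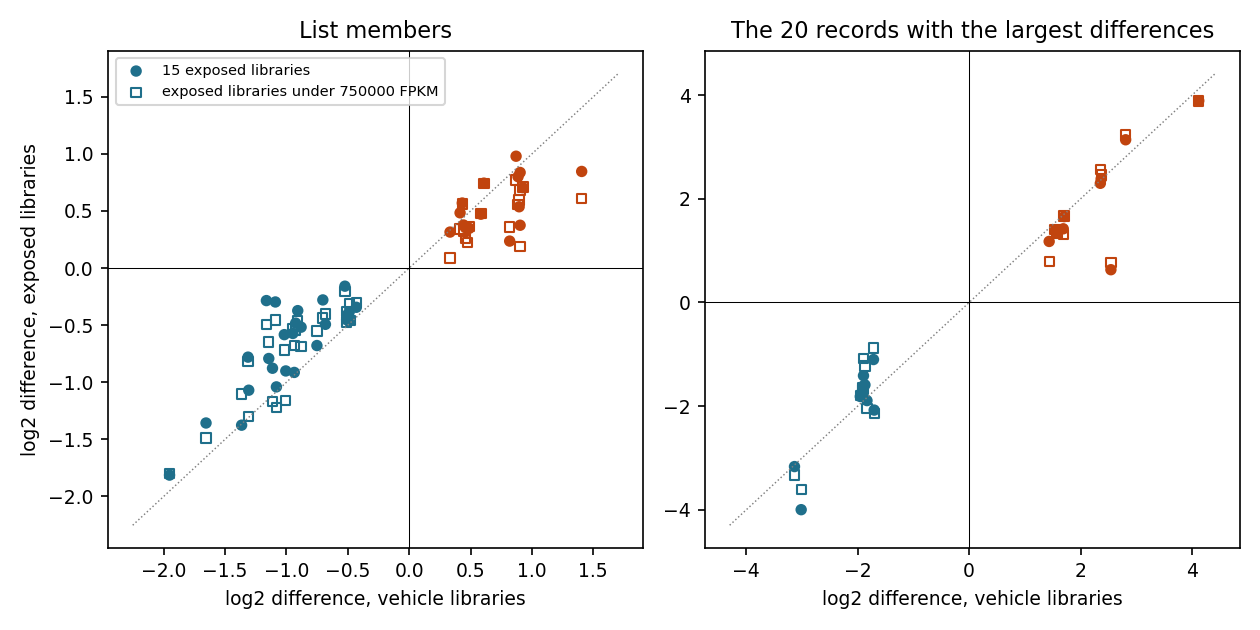
Log2 difference, clutch E minus clutch D, in the vehicle libraries (x axis) against the exposed libraries (y axis), with FPKM as deposited, for the list members called on both scales (left) and the 20 largest named differences (right). Circles use 15 exposed libraries, squares those under 750000 FPKM, and the dotted line marks equal values; every point lies in the lower left or upper right.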

How the data were processed

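Whole embryos were lysed, and 100 ng of total RNA per library was amplified and sequenced as fragments on a SOLiD instrument, per the labels' protocols. TopHat, Bowtie and Cufflinks are named in the submitters' processing notes; the sources used here give neither versions nor the genome build. The deposited values are FPKM per GenBank record, made by the authors; no counts were used, so depth is unknown and no counting intervals are given. Records were named from the file's descriptions and, by gene number, from a RefSeq gene table (Xenopus_laevis_v10.1). The 8 vehicle libraries were fitted with limma-trend (limma 3.58.1, R 4.3.3) on log2(FPKM + 1), on FPKM as deposited and after quantile normalization, for records averaging 1 FPKM or more, with Benjamini-Hochberg adjustment over all 19437 and a threshold of 0.05. Library measures were compared by two-sided exact permutation tests. Replicate numbers did not pair libraries across clutches. The 16 exposed libraries were fitted with clutch and exposure.

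Members and gene lists were chosen with earlier results of these data known. Named records are, by rule, the 10 largest named rises and falls called on both scales without overlap, up to 3 rises and 3 falls per list, a set list of germ-layer, maternal and early zygotic genes, the 5 most abundant members of each such list and the 10 most abundant named records; others named were chosen after their values were seen. Not every record the rule picks is reported here. No proteins encoded by mitochondrial DNA were matched by name. Alternatives were other scalings, pseudocounts and filters, a replicate block, all 24 libraries in 1 fit, and libraries left out.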

Additional observations from a re-analysis of the deposited data

Results flagged for a closer look

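Within clutch and record, a library was taken to stand apart when its gap to the nearest other library was large against the clutch's whole range (Dixon's criterion). Of 236 such groups of 4, 17 stood out, where chance gives about 1 in 20, and 5 of the 17 were clutch D replicate 3.

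Among the library measures, clutch D replicate 3 had a total of 729879 FPKM, against 995556 to 1011845 in its clutch, and 46.85% of FPKM in the 10 most abundant records, against 61.56% to 62.83%. The upper quartile of clutch D replicate 2 was 13.73 FPKM, against 14.5 to 14.65. Clutch E replicate 4 had the lowest summed level of the early zygotic list, 932.8 FPKM, against 992.3 to 1002 in the others.

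Of genes of the axis and germ layers, *szl* described as frzb3 had 5.158 FPKM in clutch D replicate 1, below 10.53 to 11.43 in the others, and the sizzled record had 7.078 FPKM in clutch D replicate 2, below 14.15 to 14.93. *gsc* had 10.18 FPKM in clutch D replicate 1, above 6.175 to 6.726. In clutch E, *pou5f3.1* (xoct-79) had 53.87 FPKM in replicate 1, above 42.34 to 43.41, *zic1* had 53.62 FPKM in replicate 1, below 60.35 to 61.35, and *tbxt.2* had 12.35 FPKM in replicate 2, below 13.95 to 14.22. *gdf1* had 5.002 FPKM in clutch D replicate 3, below 8.691 to 9.358.

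Of the largest differences, *gigyf1* had 5.568 FPKM in clutch D replicate 1, above 2.166e-08 to 0.1399 in the others. *ugt3a2* had 0.07881 FPKM and *ugt1a6* 0.04943 FPKM in clutch D replicate 2, both listed at 0 in the other 3 libraries. Lamin A had 0.8445 FPKM in clutch D replicate 3, above 0.4146 to 0.4545, and secretagogin had 0.2753 FPKM in clutch E replicate 3, above 0.09663 to 0.1077. A linker histone H1A variant, among the most abundant named records, had 1808 FPKM in clutch D replicate 3, above 1248 to 1288.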

How the results depend on the processing

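No named record called with FPKM as deposited turned its direction under any alternative run. Where the clutches did not overlap, leaving out libraries could not have turned the direction as deposited, so that part was fixed beforehand. Of the 71 called, 53 were also called after quantile normalization, 49 under upper-quartile scaling and 56 under scaling without the 10 most abundant records. Without clutch D replicate 3 the count was 67, and with all 24 libraries in 1 fit it was 43. The 10 largest rises and 10 largest falls among the 71 had been picked as called on both scales, so their part of the 53 was fixed beforehand.

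The share of calls that were higher in clutch E depended on scaling: 17.2% as deposited, 62.63% under upper-quartile scaling (1636 higher, 976 lower) and 39.2% under scaling without the 10 most abundant records (976 higher, 1514 lower). Calls as deposited numbered 1987 with all 24 libraries in 1 fit, 968 at an adjusted p under 0.01 and 872 at 2-fold or more; after quantile normalization these last 2 were 618 and 642. Leaving out 1 library gave 1960 to 3596 calls as deposited, with 2040, 1996 and 1960 without clutch E replicates 1, 3 and 4 and 2149 without clutch D replicate 1. After quantile normalization the range was 1316 to 2934, with 1455, 1437, 1316 and 1423 without clutch E replicates 1 to 4 and 1542, 1626 and 1545 without clutch D replicates 1, 2 and 4. With clutch D replicate 3 as the single clutch D library, assumed to vary like clutch E and chosen after seeing the data, 71 were called as deposited (36.62% higher) and 31 after quantile normalization. Fewer samples enter these fits.

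Deviations from the clutch mean correlated at -0.025 to 0.000 between libraries with the same replicate number and at -0.037 to 0.062 otherwise, so the numbers do not pair the libraries. With the replicate block 2015 records were called as deposited and 1281 after quantile normalization, and 2824 in the exposed libraries.

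In the exposed libraries 3112 were called, 10.64% of them higher in clutch E. Without AGN193109 clutch E replicate 4 there were 4952 (22.48% higher), with AGN193109 libraries alone 149, and with TTNPB libraries alone 23.64% were higher. Quantile normalization gave 44.17% higher over 16 libraries and 49.35% over 15. Libraries with a total under 750000 FPKM gave 22.66% higher, and 1606 calls with 50.56% higher after quantile normalization; the last 3 settings were chosen after seeing the data. The cause of these changes was not tested. Unknown depth leaves the precision of low records unstated.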

Other observations

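Of the 10 most abundant named records, 1 was called as deposited and 2 after quantile normalization, where 17.2% and 12.7% of all records were. A record described as a hypothetical protein was named *sdk2* by its gene number alone. It averaged 19415 ± 1257 FPKM in clutch E and 13614 ± 1119 FPKM in clutch D (SD, n = 4 each; limma adjusted p = 0.0172), and passed as deposited alone. *ccdc50*, named in the same way, averaged 13324 ± 4281 FPKM in clutch E and 20443 ± 4914 FPKM in clutch D and was not called. The U1 70K protein of the spliceosome averaged 1394 ± 119 FPKM in clutch E and 1054 ± 191 FPKM in clutch D and passed after quantile normalization alone, as did a heterogeneous ribonuclear particle protein at 1636 ± 103 FPKM in clutch E and 1273 ± 204 FPKM in clutch D. Cold-inducible RNA binding protein 2 averaged 1826 ± 61.5 and 1578 ± 129 FPKM, and high mobility group box 3 averaged 1249 ± 115 and 1166 ± 56.5 FPKM, in that order of clutches, and neither was called.

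Several of the most abundant unnamed records were far lower in clutch D replicate 3 than in the rest of its clutch. An unnamed cDNA clone had 67691, 70574, 72210 and 67652 FPKM in clutch E, against 211050, 216270, 58150 and 191090 FPKM in clutch D, so replicate 3 of clutch D lay below all of clutch E while the other 3 lay well above. Another had 25543 to 28643 FPKM in clutch E, against 31786 FPKM in clutch D replicate 3 and 77966 to 90924 FPKM in the others.

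Records of the same gene did not always share a call. The XFD-12' record of *foxd4l1* averaged 8.64 ± 7.49 FPKM in clutch E and 5.12 ± 2.72 FPKM in clutch D and was not called, whereas the XFD-12'' record of that gene rose. The second *etv4* record averaged 60.9 ± 4.86 FPKM in clutch E and 58.5 ± 5.54 FPKM in clutch D and was not called, whereas the first fell.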
